A study of Rattus norvegicus with 8 samples.

Results

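Potassium channel genes were taken as every symbol beginning with Kcn or Hcn in the authors' deposited somatic table: 95 of the 17381 genes of the series. Of these, 73 had 10 or more estimated counts in all 4 somatic libraries and are described here. The other 22 fell below that minimum. Just inside it stood Kcne4, whose lowest somatic library held 13 counts, and just outside it stood Kcna3 and Kcnab3, whose lowest held 8.

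The cells were rat dorsal root ganglion neurons, the primary sensory neurons of the body wall and limbs, taken at stage E15 and kept for 7 days in microfluidic chambers, in which axons cross fine channels into a compartment of their own. On the day of plating they received lentivirus with shPum2, a hairpin against the RNA-binding translational repressor Pum2, or with shControl. The 4 groups were axonal RNA with shPum2, axonal RNA with shControl, somatic RNA with shPum2 and somatic RNA with shControl, with 2 libraries each; the source of the somatic RNA is labelled as cell bodies together with axons. Axonal libraries came from an ultra-low input kit and somatic libraries from a standard one, so an effect of the compartment and one of the kit cannot be told apart. The labels do not say whether replicates were separate cultures, so p-values measure the spread between these libraries, which may be technical.

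Library totals lay between 11641980 and 16131627 estimated counts in axons and between 16725902 and 25821800 in somata. Pum2 itself stood at 10.8 and 10.2 TPM (a transcript's share of the library after division by its length) in shPum2 somata, against 46.7 and 44.6 TPM in shControl somata, a log2 fold change of -2.13 (SE 0.07, adjusted p = 0.0247, edgeR quasi-likelihood test). In axons Pum2 had 17 and 114 counts with shPum2 and 38 and 6 with shControl, and the test did not show a knockdown there (log2 fold change 1.25, SE 2.37, adjusted p = 0.9993). The axonal libraries are therefore called by their labels. Sensory neuron markers, 9 of 10 found, summed to between 5415 and 10400 TPM in axons and between 24720 and 29030 TPM in somata. Macrophage markers summed to 2399 and 128 TPM in shPum2 axons and to 1035 and 1918 TPM in shControl axons, against at most 145 TPM in any somatic library; of those 6 markers Cd74 was at 0 in all axonal libraries. Schwann and satellite glia markers summed to at most 30.6 TPM in any axonal library, with Cdh19 at 0. In bulk RNA, fewer cells of a type and less RNA per cell cannot be told apart.

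Potassium channels let potassium leave the cell, set the resting potential and end the action potential. Voltage-gated channels are tetramers of alpha subunits that open on depolarisation, with accessory subunits that set their gating and traffic; other classes answer to calcium or sodium, pass current mainly inwards, or leak at rest through 2-pore-domain subunits. HCN channels are related cation channels opened by hyperpolarisation. In sensory neurons these channels govern threshold, firing pattern and transmitter release, and several are concentrated at defined parts of the axon.

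In the somata, 4 members stood at 100 TPM or more on average over the 4 libraries, 22 at 10 to 100 TPM, 39 at 1 to 10 TPM and 8 below 1 TPM. The 34 voltage-gated alpha subunits above the minimum, of 39 symbols, supplied most of the members' total: 789 of 1401 and 865 of 1480 TPM in shPum2 somata, and 949 of 1589 and 890 of 1509 TPM in shControl somata. Kcnc4, a rapidly inactivating channel of the Shaw family, had 163 and 176 TPM in shPum2 somata and 199 and 196 TPM in shControl somata. Kcnq5, a subunit of the slow M-current, had 140 and 171 TPM in shPum2 somata and 186 and 167 TPM in shControl somata. Kcna6, a low-threshold Shaker-type subunit, had 117 and 131 TPM in shPum2 somata and 140 and 138 TPM in shControl somata. Both shPum2 libraries lay below both shControl libraries for Kcnc4 and Kcna6, while the Kcnq5 libraries overlapped.

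Below these 3 came Kcnd1, an A-type subunit, with a mean of 79.8 TPM, and Kcnh2 and Kcnh6, both of the erg family, with means of 61.8 and 54.5 TPM. Kcna1, found beside nodes of Ranvier in mature axons, averaged 14.9 TPM. The electrically silent modifiers, which act only in assembly with other alpha subunits, were low in somata: Kcng4 had 3.49 and 3.75 TPM in shPum2 somata and 3.75 and 3.27 TPM in shControl somata. Among neighbours in this order, Kcnh2 and Kcnh6 overlapped in their ranges over the 4 libraries.

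Of the accessory subunits, 8 of 12 symbols passed the minimum. The cytoplasmic beta subunits led: Kcnab1 had 89.9 and 105 TPM in shPum2 somata and 102 and 104 TPM in shControl somata, and Kcnab2 had 81.8 and 81.8 TPM in shPum2 somata and 87.3 and 83.2 TPM in shControl somata. The calcium-binding Kcnip1 to Kcnip4, partners of the A-type Kcnd channels, averaged 15.9, 6.38, 12.9 and 7.00 TPM in that order. Kcne2 and Kcne4, single-pass membrane partners, stood below 5 TPM in every somatic library.

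Among channels activated by calcium or sodium, 8 of 11 symbols passed. Kcnmb4, the neuronal beta subunit of the large-conductance calcium-activated channel, averaged 48.6 TPM, above the 19.6 TPM of Kcnma1, the pore of that channel. Kcnt1, a sodium-activated channel, averaged 29.3 TPM and its relative Kcnt2 7.51 TPM. The small-conductance channels Kcnn1 and Kcnn2 stayed below 4 TPM in every somatic library.

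Inward rectifiers (9 of 15 symbols) were led by Kcnj3, a G-protein-gated subunit, at 16.7 TPM on average, then Kcnj14 at 8.85 TPM and Kcnj12, a strong rectifier, at 6.92 TPM. Kcnj11, the pore of the ATP-sensitive channel, averaged 5.40 TPM. Among 2-pore-domain leak channels (9 of 13 symbols), Kcnk10, Kcnk4 and Kcnk12 averaged 17.5, 13.8 and 11.7 TPM. Kcnk10, Kcnk4 and Kcnk2 form the branch opened by stretch and lipids, and Kcnk18, the channel set by calcineurin and linked to migraine in humans, averaged 2.27 TPM. Kcnk2 divided by replicate number, not by hairpin, with 13.9 and 4.45 TPM in shPum2 somata and 10.6 and 5.45 TPM in shControl somata. Fibroblast markers summed to 2775 and 528 TPM in the same shPum2 libraries and to 1088 and 546 TPM in the shControl libraries, and their part in the Kcnk2 values was not tested.

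All 4 HCN genes passed the minimum. Hcn3 had 50.6 and 57.4 TPM in shPum2 somata and 53.5 and 56.0 TPM in shControl somata. Hcn2, which responds strongly to cyclic AMP, had 42.9 and 38.4 TPM in shPum2 somata and 41.8 and 36.5 TPM in shControl somata. Hcn4, which opens slowly, stood below both, with 21.7 and 25.9 TPM in shPum2 somata and 21.0 and 23.6 TPM in shControl somata.

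**Figure D1:**
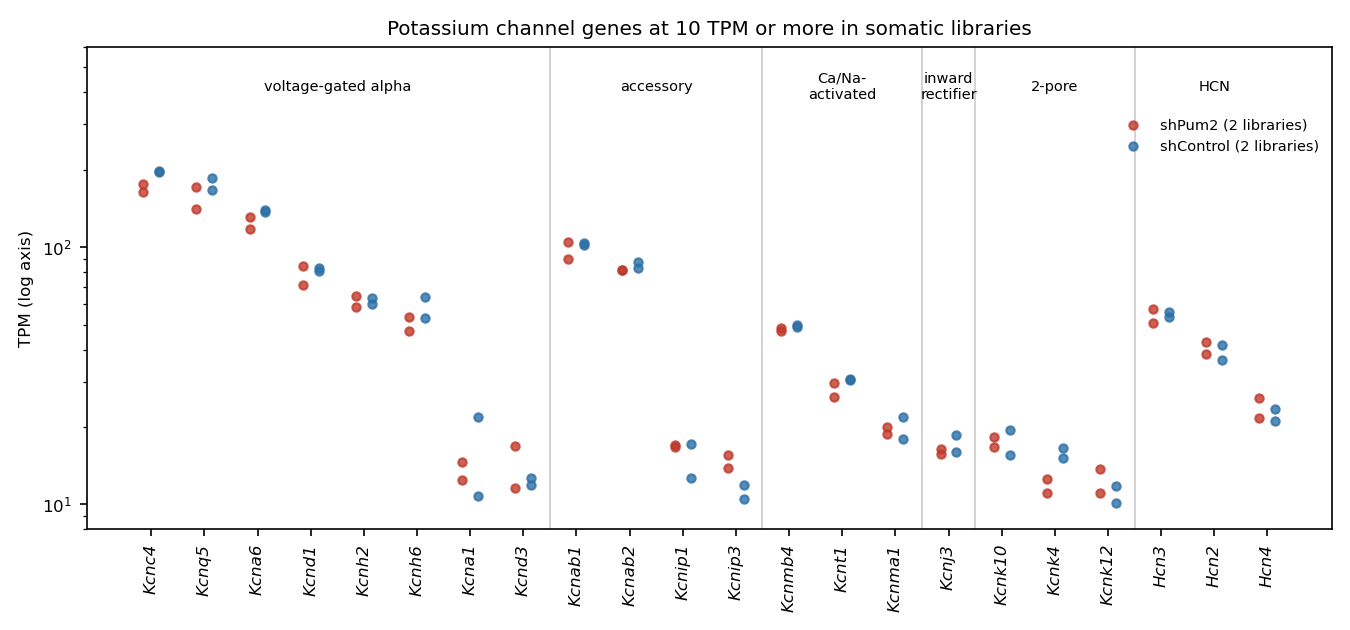
TPM (log axis) in each somatic library of 22 potassium channel genes that averaged 10 TPM or more, grouped by family, with shPum2 points left of shControl points. Kcnc4 and Kcnq5 stand highest, and Hcn3, Hcn2 and Hcn4 lie between about the levels of Kcnh6 and Kcnma1.

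The knockdown of Pum2 was then set against the control hairpin within the somata, which asks whether the levels of these genes depended on Pum2. None of the 73 members passed an adjusted p of 0.05, and none had an unadjusted p under 0.05, in edgeR or in DESeq2 or limma voom. Among all 12348 genes tested 0.0081% passed, a single gene, Pum2. The members' log2 fold changes were small, between -1.21 and 0.93, with 24 above 0 and 49 below it and a median of -0.07, beside a median of 0.01 over all genes tested, of which 47.3% lay below 0. Without each somatic library in turn, between 41 and 54 of the 73 lay below 0. In the raw comparison of libraries, 22 members (30.1%) had both shPum2 libraries below both shControl libraries, beside 13.2% of genes with the somatic minimum, and 7 members (9.59%) had both above, beside 11.2%. The sum of sensory neuron markers stood in the lower order too, at 24720 and 28420 TPM in shPum2 somata and 29030 and 28900 TPM in shControl somata. The part of the neuronal share of the RNA in the members' values was not tested.

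By family, 25 of 34 voltage-gated alpha subunits lay below 0, with a median of -0.17, and all 8 of the calcium- or sodium-activated group did, with a median of -0.08. The 2-pore-domain group ran the other way, with 8 of 9 above 0 and a median of 0.17. That group's direction rested on shPum2 replicate 2: without it, 5 of its 9 members lay below 0 and the median was -0.03. The HCN genes were split, with 2 above and 2 below, and the inward rectifiers had 3 above and 6 below.

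The 6 members with the smallest p-values all missed the threshold, each at an adjusted p of 0.9997, and 4 of them are described. Kcnc4, whose levels are given above, had a log2 fold change of -0.22 (SE 0.10), with the shPum2 libraries below the shControl libraries without overlap.

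The other 3 were 2-pore-domain genes. Kcnk4 had 11.1 and 12.5 TPM in shPum2 somata and 16.6 and 15.1 TPM in shControl somata, a log2 fold change of -0.43 (SE 0.20). Kcnk6 had 2.99 and 1.77 TPM in shPum2 somata and 1.5 and 0.987 TPM in shControl somata, a log2 fold change of 0.93 (SE 0.43). Kcnk15 had 1.90 and 1.60 TPM in shPum2 somata and 0.898 and 1.15 TPM in shControl somata, a log2 fold change of 0.75 (SE 0.35). Kcnk4 was lower, and Kcnk6 and Kcnk15 higher, in both shPum2 libraries than in both shControl libraries. Kcnk6 was highest in shPum2 replicate 1, the library with the highest fibroblast and somatic macrophage marker sums (2775 and 145 TPM, against at most 1088 and 62.8 TPM in the other somatic libraries), and their part in its value was not tested.

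**Figure D2:**
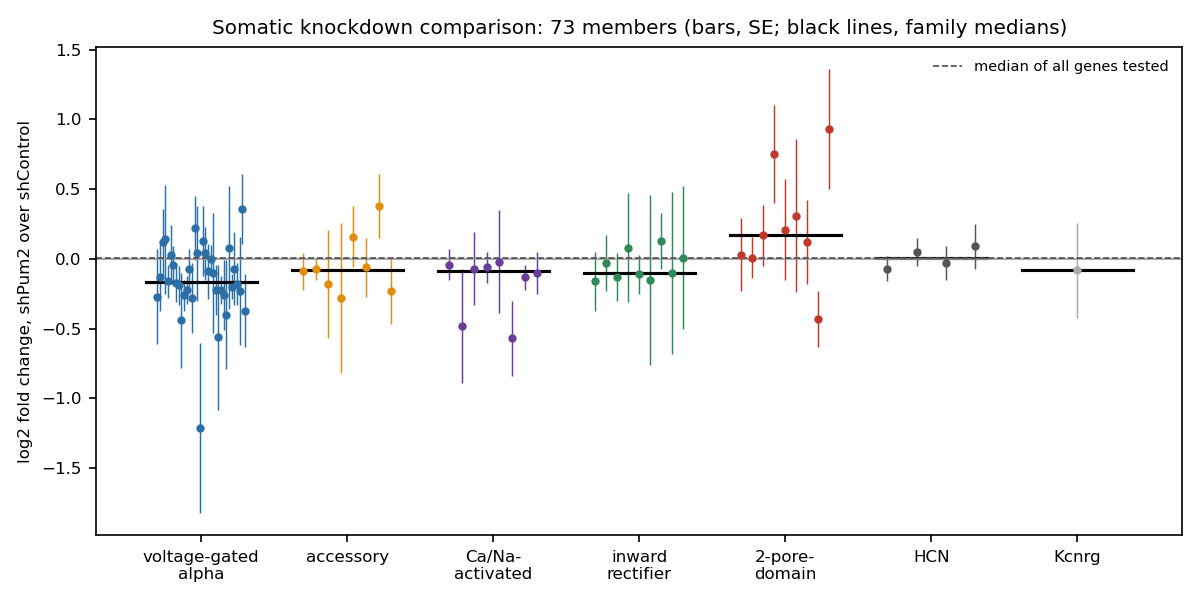
log2 fold change of shPum2 over shControl in somata for the 73 members by family, each with its SE, with black lines at the family medians and a dashed line at the median of all genes tested (0.01). Voltage-gated alpha subunits centre on -0.17 and 2-pore-domain genes on 0.17, and the error bars of most members reach or cross 0.

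Proteins that assemble with or cluster these channels were tested beside them. Of a list of 30 such partners 25 were found and 23 could be tested in somata, with none passing, 5 above 0 and 18 below. The nearest were Amigo1, an adhesion protein that assembles with delayed rectifier channels, at -0.24, Cntnap1, which forms the junctions beside the node, at -0.16, Sptbn4, the spectrin of the axon initial segment, at -0.13, and Lgi2, a secreted ligand, at 0.22.

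In axons, potassium channel genes were sparsely detected. Of the 73 members, 39 (53.4%) reached 10 counts in no axonal library, against 14.8% of the 11802 genes with the somatic minimum, and 10 (13.7%) reached it in all 4, against 39.0%. At 0 counts in all 4 axonal libraries were 16 members (21.9%, against 5.31%). Per library, 34.2% and 27.4% of members reached 10 counts in shPum2 axons and 26.0% and 30.1% in shControl axons, against 72.9% and 55.5% of all such genes in shPum2 axons and 65.5% and 56.2% in shControl axons. A count of 0 limits what these libraries could show at this depth and does not show absence.

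The shortfall was largest at 10 to 100 TPM in somata. All 4 members at 100 TPM or more in somata were present in all axonal libraries, as were 90.5% of all genes at that level. Of the 22 members at 10 to 100 TPM only Kcnmb4 was present in all 4 (4.55%, against 38.9% of genes), and 9 were present in none (40.9%, against 6.39%). At 1 to 10 TPM, 4 of 39 members were present in all 4 (10.3%, against 12.2%) and 24 in none (61.5%, against 33.6%). Below 1 TPM, 1 of 8 members was present in all 4 (12.5%, against 9.09%) and 6 in none (75.0%, against 56.5%). The members' transcripts had a median length of 2751 bases, against 2234 for all genes with the somatic minimum.

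**Figure D3:**
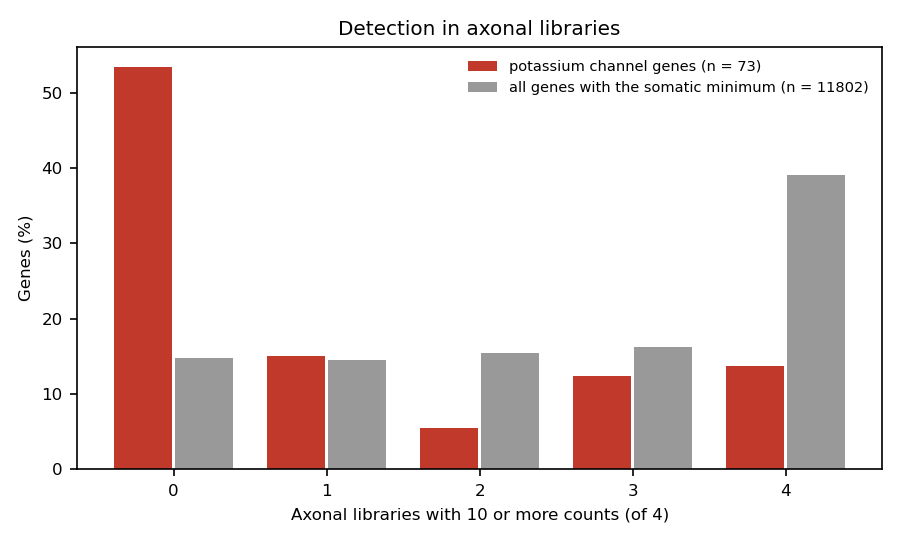
Percent of the 73 potassium channel genes (left bars) and of all 11802 genes with the somatic minimum (right bars) by the number of axonal libraries with 10 or more estimated counts. The bar at 0 libraries is 53.4% for the channel genes and 14.8% for all genes, and the bar at 4 libraries is 13.7% and 39.0%.

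The 10 members present in every axonal library were Kcng4, Kcnj12, Kcnmb4, Kcnab1, Kcna6, Kcnj14, Kcnq5, Kcna7, Kcnc4 and Kcnj6. Kcng4 was the most abundant, with 2279 and 3737 counts in shPum2 axons and 7190 and 3001 in shControl axons. Its level was 40.0 and 40.1 TPM in shPum2 axons and 112 and 43.7 TPM in shControl axons, which was 23.9% and 42.1% of the TPM summed over all members in shPum2 axons and 61.7% and 24.1% in shControl axons. The strong inward rectifier Kcnj12 had 785 and 229 counts in shPum2 axons and 978 and 696 in shControl axons. Kcna6 had 1213 and 857 counts in shPum2 axons and 396 and 491 in shControl axons, and Kcnmb4 had 153 and 241 in shPum2 axons and 100 and 138 in shControl axons. These 4 genes held at least 100 counts in every axonal library, as did Kcnj14, another inward rectifier.

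Some members differed widely between replicates of a hairpin. Kcnab1 had 344 and 20 counts in shPum2 axons and 13 and 1134 in shControl axons. Hcn2 had 39 and 174 in shPum2 axons and 2 and 647 in shControl axons. In both genes the counts of the hairpins overlapped, and the raw counts of a hairpin's replicates differed by more than 4-fold. In TPM the Hcn2 replicates in shPum2 axons were closer, at 1.09 and 2.96. Another 11 members reached 10 counts in a single axonal library, among them Kcnd3 with 1245, Kcne4 with 251, Kcnt1 with 228, Kcnq3 with 204, Kcnh1 with 135, Kcnj8 with 100, Kcnk6 with 66, Kcnf1 with 50, Kcnk15 with 18 and Kcnk18 with 12. No 2-pore-domain gene reached 10 counts in more than 1 axonal library.

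Kcnd3, an A-type subunit, shows how narrow such signals were. Its 1245 counts in shControl replicate 2 stood against 2 and 0 in shPum2 axons and 0 in shControl replicate 1, and 98.8% of its axonal counts were assigned to a single one of its 3 transcripts, which held 39.9% of its somatic counts. For Kcnip2, in counts pooled per compartment, the transcript with 81.5% of the axonal counts held 36.0% of the somatic counts. The counts of that transcript differed between replicates, with 140.2 counts in shPum2 somatic replicate 1 and 1.5 in replicate 2. In shControl axon replicate 1 that transcript held 35.3 counts and another held 88.7. The pooled shares therefore cannot show a difference in transcript make-up between compartments.

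**Figure D4:**
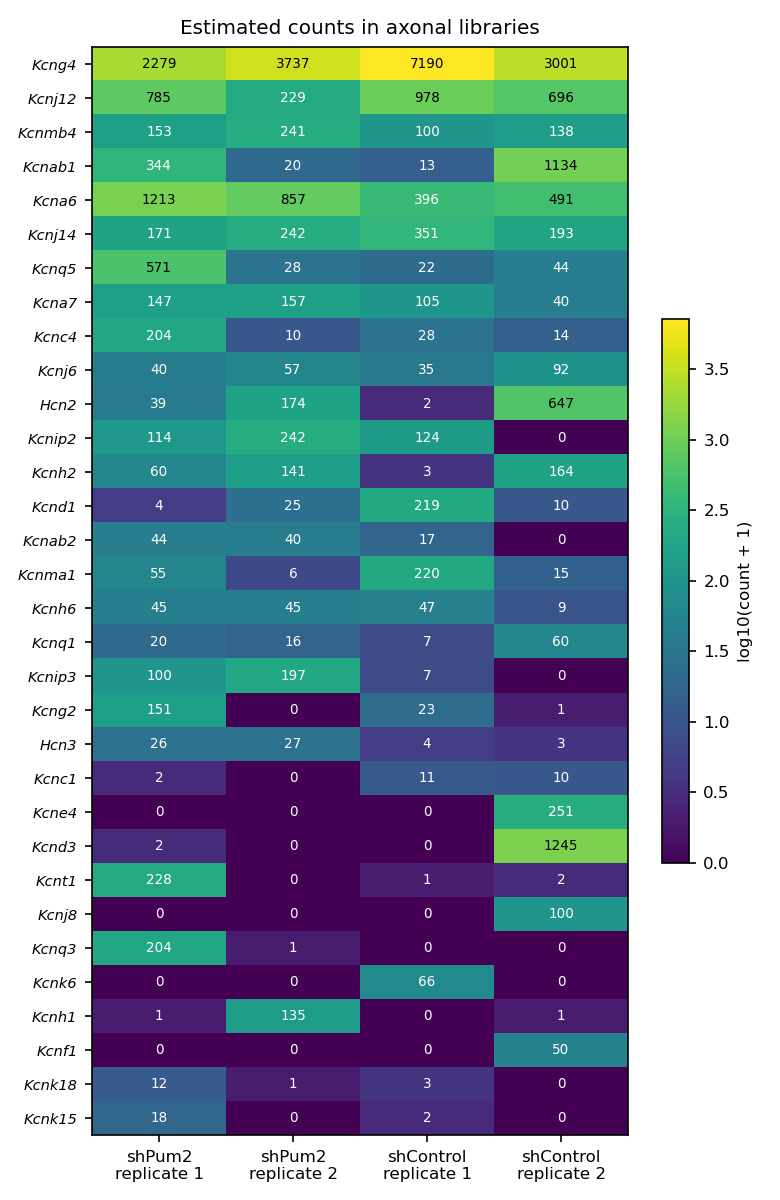
Estimated counts in each of the 4 axonal libraries (colour, log10 of count + 1; number, the count) for 32 of the 34 members with 10 or more counts in at least 1 of them. Rows near the top are filled across, while rows near the bottom are filled in 1 library alone, such as Kcnd3 with 1245 counts in shControl replicate 2.

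Of the genes below the somatic minimum, 4 reached 10 counts in an axonal library, and they were looked at after their values were seen. Kcnn4, an intermediate-conductance calcium-activated channel of blood and immune cells, had 215 counts and Kcnk13, a leak channel known in microglia, had 115 counts, both in shControl axon replicate 1. Both were at 0 in shPum2 axons and at 1 or 0 in the other shControl library. Kcnk5 had 85 counts in shControl replicate 2, and Kcnn3 had 10 and 24 counts in shPum2 axons and 0 in both shControl axons. Macrophage markers summed to 1035 TPM in shControl replicate 1, and to 2399 TPM in shPum2 replicate 1, where Kcnn4 and Kcnk13 were at 0; their part in these values was not tested. Of the others below the somatic minimum, Kcna10 was at 0 in all 8 libraries, and 17 of the 22 had at least 1 count in every somatic library.

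The knockdown in axons was tested on the 22 members with enough counts, 11 of them voltage-gated alpha subunits. None passed an adjusted p of 0.05 in edgeR, as was so for all 8519 genes tested (0.0%). No member had an unadjusted p under 0.05 in edgeR or limma voom; DESeq2 gave 1 such member and called none, while it called 2.21% of the 7197 genes to which it gave an adjusted p. The members had 12 log2 fold changes above 0 and 10 below, with a median of 0.26 beside -0.05 over all genes. Both shPum2 libraries stood above both shControl libraries for 6 members, and none stood below, beside 16% of genes above and 11.8% below. The biological coefficient of variation, the spread between replicates beyond counting error, was 125% in axons and 23.5% in somata.

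Kcnip3, which binds the Kcnd channels and also acts as a transcriptional repressor, had 100 and 197 counts in shPum2 axons and 7 and 0 in shControl axons, a log2 fold change of 5.02 (SE 2.98), and of 10.23 without shControl replicate 1. In somata it had 15.6 and 13.8 TPM with shPum2 and 11.9 and 10.5 TPM with shControl. Hcn3 had 26 and 27 counts in shPum2 axons and 4 and 3 in shControl axons, a log2 fold change of 2.62 (SE 1.87). For Kcna6 the log2 fold change was 0.99 (SE 1.04). All 3 stood higher in both shPum2 axon libraries than in both shControl axon libraries, and all had an adjusted p of 0.9993.

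The other genes with the smallest p-values in axons overlapped between hairpins. Kcng4 had a log2 fold change of -1.05 (SE 0.72), set largely by the 7190 counts of shControl replicate 1, and without that library it was -0.04. Kcnq5 had 571 and 28 counts in shPum2 axons and 22 and 44 in shControl axons, a log2 fold change of 2.95 (SE 2.31) that turned to -0.40 without shPum2 replicate 1. Kcnd1 had 4 and 25 counts in shPum2 axons and 219 and 10 in shControl axons, a log2 fold change of -3.31 (SE 2.73) that turned to 0.53 without shControl replicate 1.

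In the authors' deposited table for axons, 26 members have an adjusted p and 1 of them passed 0.05, beside 4.03% of the 8858 genes with one. It was Kcnd3, in the authors' deposited table with a log2 fold change of -7.23 (SE 1.87, adjusted p = 0.00978). That gene was too sparse for the test above, and nearly all its axonal counts came from the 1 library already named. In the authors' deposited table for somata no member passed, beside 0.0134% of genes. Among partners, 13 could be tested in axons and none passed; the nearest were Abcc9 at -1.94, Adam23 at 2.16, Cntnap1 at 2.06 and Cntn2 at 1.61.

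Axons were also compared with somata under each hairpin. With shPum2, 39 members passed an adjusted p of 0.05, 2 higher and 37 lower in axons, among a background of 24.7% of the 12339 genes tested (8.44% higher, 16.2% lower). With shControl, 45 passed, 2 higher and 43 lower, among 27.9% of genes (9.41% higher, 18.5% lower). The members were chosen on somatic counts, so the excess of lower values is a description. The median log2 fold change of the members was -6.22 with shPum2 and -5.65 with shControl, beside -0.64 and -0.76 over all genes tested. Fitted values for genes at 0 depend on the software's prior count. Median log2 ratios were therefore also taken on CPM (counts relative to the library total), with axonal counts below 3 over the group set to 3. The members' medians were then -4.49 with shPum2 and -4.41 with shControl, beside -2.16 and -2.38 over genes with the somatic minimum. Members at 0 axonal counts numbered 27 with shPum2 and 23 with shControl, and those at 1 to 3 counts 15 and 17. The members' medians thus depend on this floor.

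These counts of calls changed with the somatic libraries in the fit. With the 4 libraries of a hairpin fitted alone, 34 of 72 members tested were called with shPum2 and 43 of 73 with shControl. Over all genes those fits called 2184 and 3952. Without shPum2 somatic replicate 1, or without replicate 2, none of the 39 shPum2 calls was left, and without shControl somatic replicate 1, or without replicate 2, 1 was left, Kcng4. In the shControl comparison none was left without shControl somatic replicate 1 or 2, and Kcng4 alone without shPum2 somatic replicate 1 or 2. Over all genes, too, no call was left without a somatic library of the hairpin compared. Without a somatic library of the other hairpin a part of the calls over all genes remained, so Kcng4 was not the only gene left. Each of the fits without 1 somatic library left 1 library in a group, as did those without 1 axonal library, in which calls remained.

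Of the members called lower, 35 were called under both hairpins, which is 35 of 37 with shPum2 and 35 of 43 with shControl. Both comparisons used 1 shared estimate of each gene's spread. The same overlap was not counted over all genes, so it describes the members and is not set against a background. Among these 35 members were Kcnb2, Kcnj3, Kcnk10, Hcn3 and Hcn4. Kcnk10 held 2 counts in axons and 1441 in somata with shPum2, so its CPM was 425-fold higher in somata (95% counting interval 118 to 3513), and with shControl it was 375-fold higher (104 to 3101). Hcn3 was 37.3-fold higher in somata with shPum2 (28.5 to 49.9) and 259-fold higher with shControl (126 to 646). Hcn4 held 1 axonal count with shPum2 and 8 with shControl. Of the other abundant members called lower, Kcnj3 had a log2 fold change of -6.20 with either hairpin (SE 1.52 each), from 2 axonal counts each; with shControl it was -10.96 without axon replicate 2. Called with shPum2 alone among them were Kcnc1 at -6.56 and Kcnk12 at -6.86, and with shControl alone Kcnh6 at -3.98 and Kcna1 at -6.95. Kcnc1, Kcnk12 and Kcna1 held 2, 1 and 1 axonal counts in those groups. Without shPum2 axon replicate 1 Kcnc1 was at -11.14 and Kcnk12 at -10.52, and without shControl axon replicate 2 Kcna1 was at -10.79. Kcnk12 missed the threshold without shPum2 axon replicate 2 (-6.03, adjusted p = 0.0766), Kcna1 without shControl axon replicate 1 (-6.03, adjusted p = 0.0655) and Kcnj3 with shPum2 without shPum2 axon replicate 2 (-6.34, adjusted p = 0.0569). Leaving out any one somatic library also ended the calls of these 3 genes and of Kcnc1, with adjusted p-values between 0.0923 and 0.157. Such intervals cover counting error only.

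Members at 0 in both axonal libraries numbered 27 with shPum2 and 23 with shControl. The share over all genes was counted over all 4 axonal libraries only, where it was 5.31%, against 21.9% of members. Kcnb2, a delayed rectifier, was at least 147-fold lower in axons with shPum2 and at least 149-fold lower with shControl, from 749 and 708 somatic counts. Kcnip1 was at least 122-fold lower with shPum2 and at least 101-fold lower with shControl, and Kcnj11 at least 81.4-fold and at least 80.9-fold lower. These bounds cover counting error only, not the spread between axonal replicates. Kcnd3, for example, had 0 and 1245 counts in the shControl axon libraries.

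The abundant subunits Kcna6, Kcnc4 and Kcnq5, and Hcn3, had smaller fitted differences with shPum2 than with shControl. Kcna6 had a log2 fold change, axon over soma, of -1.19 with shPum2 (SE 0.36, adjusted p = 0.0535) and of -2.38 with shControl (SE 0.37, adjusted p = 0.0111). Kcnc4, with 204 and 10 axonal counts with shPum2 and 28 and 14 with shControl, had -3.70 with shPum2 (SE 1.25, adjusted p = 0.0771) and -5.94 with shControl (SE 1.40, adjusted p = 0.0251). Kcnq5 had -2.53 with shPum2 (SE 1.16, adjusted p = 0.168) and -5.65 with shControl (SE 1.34, adjusted p = 0.0256). Hcn3 had -3.67 with shPum2 (SE 0.83, adjusted p = 0.0235) and -6.39 with shControl (SE 0.96, adjusted p = 0.0101). For Kcnc4 and Kcnq5 the axonal level with shPum2 came mainly from replicate 1. Without shControl axon replicate 1 the shControl values were -6.64 for Kcnc4 and -5.26 for Kcnq5, and without replicate 2 -5.45 and -6.07. Neither gene passed the threshold with shControl in either of these fits. Other members went the opposite way, such as Hcn4 with -8.93 with shPum2 (SE 1.51) and -5.70 with shControl (SE 1.26). No difference between the hairpins passed its own test, given last.

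Kcng4 and Kcnj12 were the 2 members called higher in axons, and were named for that after their values were seen. Kcng4 had a log2 fold change, axon over soma, of 6.23 with shPum2 (SE 0.72, adjusted p = 0.00625) and of 7.26 with shControl (SE 0.76, adjusted p = 0.00472). On CPM with no further scaling it was 25.3-fold higher with shPum2 and 49.5-fold higher with shControl. Macrophage markers summed to 2399 and 128 TPM in the shPum2 axons, where Kcng4 stood at 40.0 and 40.1 TPM, and to 1035 and 1918 TPM in the shControl axons, where it stood at 112 and 43.7 TPM; their part in its values was not tested. Kcng4 counts were not whole numbers in any of the 8 libraries, although the gene has 1 transcript in the files. Part of its reads was therefore shared with other transcripts, and its level is uncertain to that extent. The same held for Kcnab1, Kcnj14 and Kcnj6 among the members present in every axonal library.

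Kcnj12 had 3.56 with shPum2 (SE 0.81, adjusted p = 0.0234) and 4.52 with shControl (SE 0.84, adjusted p = 0.0182), and its level was 25.6 and 4.53 TPM in shPum2 axons and 28.0 and 18.7 TPM in shControl axons, against 7.32 and 6.41 TPM in shPum2 somata and 7.82 and 6.13 TPM in shControl somata. Scaled by library totals it missed the threshold, with 2.22 (adjusted p = 0.120) for shPum2 and 2.93 (adjusted p = 0.0559) for shControl. In the axonal library with 128 TPM of macrophage markers Kcnj12 was lowest, and their part in its values was not tested. Kcnj14 missed it under both hairpins, with 1.74 (adjusted p = 0.192) and 2.23 (adjusted p = 0.0981). Kcna7, Kcnj6 and Kcnmb4 were above 0 as scaled here and below 0 when scaled by library totals. That scaling moved the median of all genes to -2.03 with shPum2 and -2.34 with shControl.

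**Figure D5:**
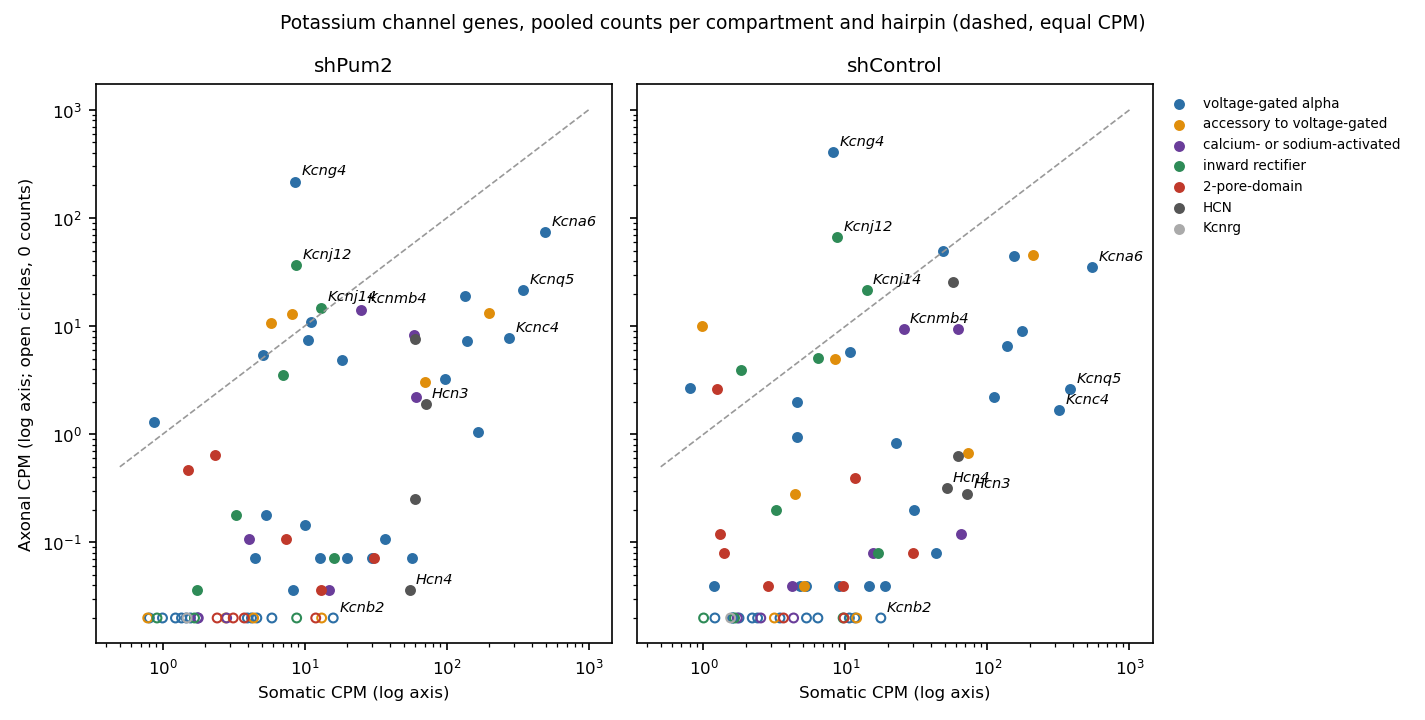
Axonal against somatic CPM (both log axes, counts pooled over the 2 libraries of a group) for the 73 members, shPum2 left and shControl right, with open circles for genes at 0 axonal counts and a dashed line at equal CPM. Kcng4 and Kcnj12 lie well above the line in both panels, 25.3-fold and 4.2-fold with shPum2 and 49.5-fold and 7.63-fold with shControl, while Hcn3, Hcn4 and most 2-pore-domain genes lie far below it.

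Of the 23 partners tested, 10 were called lower in axons with shPum2 and 14 with shControl, beside 16.2% and 18.5% of all genes. Dlg4, a scaffold that clusters Shaker-type channels, had -5.42 with shPum2 (SE 0.73) and -6.23 with shControl (SE 0.76). Sptbn4 had -5.90 and -6.56, and Ank3, the ankyrin that anchors channels at the initial segment, had -3.41 and -4.19, for shPum2 and shControl in that order.

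Whether the knockdown acted differently in axons and somata was tested as an interaction, the axonal effect minus the somatic one. None of the 73 members passed (5 had an unadjusted p under 0.05), as none of the 12339 genes did (0.0%). DESeq2 called 1 member, Kcne4, whose axonal counts came from 1 library, beside 5.35% of the 11382 genes to which it gave an adjusted p (12 had an unadjusted p under 0.05), and limma voom called none (1 had an unadjusted p under 0.05). The smallest p-values belonged to Kcnq3 at 11.12 (SE 4.0), Kcnk4 at 5.50, Kcnk6 at -10.74, Kcnd3 at -9.53, Hcn3 at 2.72 and Kcna6 at 1.19, all with an adjusted p of 0.573. The value for Kcnk4 rested on 2 and 1 axonal counts with shPum2 and 0 in both shControl axons. For Kcnq3, Kcnk6 and Kcnd3 all but at most 2 of the axonal counts came from 1 library each. Without that library Kcnq3 stood at 4.95, Kcnk6 at -0.93 and Kcnd3 at 4.37. The median over the 73 members was 0.03, beside -0.01 over all genes.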

How the data were processed

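Each library's file, as the authors deposited it, gives estimated counts, TPM, length and effective length per RefSeq transcript. Per the submitters' processing notes, kallisto and DESeq2 were used with the build Rnor_6.0; tool versions are not given in the sources used here. The authors' 2 deposited comparison tables hold, per the file headers, a mean normalised signal, log2 fold changes with standard errors, p-values before and after adjustment and the test's score. Of 18321 transcripts, 17359 (94.7%) got a symbol from RefSeq's GRCr8 gene table, used for names and neighbouring genes; counts and TPM were summed per gene and counts rounded. No deposited column was left unmapped (0).

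Counts were tested in R 4.3.3 with edgeR 4.0.16 (TMM, filterByExpr, quasi-likelihood test, Benjamini-Hochberg adjustment over all genes tested, threshold 0.05), per compartment for the knockdown and in 1 fit of 8 libraries for compartment and interaction; the tests were also run on simulated data. DESeq2 1.42.0, limma 3.58.1 (voom), other scalings, no expression filter, 1 transcript per gene, fits per hairpin, left-out libraries and a replicate block were alternatives. Floors used 3 counts, and intervals the 95% exact level. Of the 73 members, 21 had counts that were not whole within 0.001, 14 of them with 1 transcript, so that reads were shared with other transcripts, and 33 overlap another locus in GRCr8; the handling of strand is not given in the sources used here.

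Fold changes were given for members past 0.05 (the 12 with the highest somatic TPM where more passed), otherwise for the 6 with the smallest p. The members and lists were chosen with earlier results of these data known. Some genes that these rules name are not reported here. Sequences were not used here.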

Additional observations from a re-analysis of the deposited data

How the results depend on the processing

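Leaving out 1 library at a time gave 0 to 51 member calls for axons against somata with shControl (45 with all libraries) and 0 to 53 with shPum2 (39 with all); over all genes, 5537 were called beside the 51 (3445 with all libraries), and 4690 and 4755 beside the 53 (3043 with all). The lowest values came without a somatic library, as named above; the cause was not tested. The knockdown in somata kept 0 calls throughout. In axons Kcnd3 alone crossed the threshold, at -10.22 without shControl axon replicate 1. That fit left 1 control axon library, the one with the 1245 counts of Kcnd3. The interaction gave 0 to 6 (Kcnab2, Kcnip2 and Kcnip3 higher, Kcnd3, Kcne4 and Kcnf1 lower, all without shControl axon replicate 1) and 1 with DESeq2. Directions reversed without 1 axonal library for Kcnq5 in axons (-0.40 to 3.85 over the left-out libraries), Kcnd1 in axons (-5.20 to 0.53) and the Kcnd3 interaction (-14.19 to 4.37); of the other values of single genes, 536 kept direction and side of the threshold, 141 lost the threshold and 1 gained it. Chosen after seeing the data, an axonal minimum of 5 or 20 counts gave 35 or 43 members in no axonal library and 14 or 8 in all 4. Somatic minimums of 5 and 50 would report 79 and 53 members.

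Replicate numbers are shared between groups, but nothing in the labels pairs them. Deviations of same-numbered libraries correlated with r = 0.73 between somatic groups (2 pairs) and 0.08 between axonal groups, across genes. With the replicate number as a block, 0 members were called in somata, 0 in axons and 0 in the interaction; axons against somata gave 28 calls with shPum2 (2190 over all genes, 3043 without the block) and 27 with shControl (2369, and 3445 without). Under the block Hcn3 with shPum2 (adjusted p = 0.0533), Kcnj3 with both hairpins (0.0575 and 0.0545), Kcnh6 with shControl (0.0529), Kcna1 with shControl (0.0627), Kcnc1, Kcnk12, Kcnk4 and Kcnb2 with shPum2 (0.0543, 0.0584, 0.0730 and 0.0590) and Kcnip1 with both (0.0575 and 0.0573) missed the threshold.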
